A study of Pseudotsuga menziesii with 66 samples.

Results

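In needles of Douglas-fir (Pseudotsuga menziesii), 200 transcripts reached their highest level of the year on 6 January 2011, in deep winter. They were chosen by their measured levels among 199471 transcripts counted in 66 RNA-seq libraries from 16 collection dates. Each count was divided by the total of its library and multiplied by 1000000, which gives CPM, and CPM were averaged over the trees of each date. Transcripts were kept if the mean of the 16 date means lay between 10 and 1000 CPM and if the highest date mean was at least 4 times the lowest, with the lowest not set below 0.1 CPM. Of the 4708 that were kept, 848 were highest on 6 January, and in 789 of these every library of that date lay above the mean of the dates. The 200 with the largest ratio of the 6 January mean to the mean of the other dates make up the January set. All of the statements that follow about the January peak itself describe that choice and carry no test.

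Evergreen conifers keep their needles through winter and harden them against frost as days shorten and temperatures fall. Hardening is known to involve proteins that protect cells from drying and ice, changes in membrane lipids, stored sugars, and a lowering of photosynthesis together with stronger dissipation of absorbed light, and it is undone in spring. The deposited files list transcripts by identifier only and do not pair the identifiers with gene names or sequences, so which of these processes the January set belongs to was not examined here, and needle markers could not be looked up. Transcripts are therefore described by what they did in time and in each tree.

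The 5 trees stood in a common garden at Central Point, Oregon, after planting as young trees, and all belonged to the low-elevation Oregon Siskiyou seed source. CCTO44 and CCTO90 came from seed of a higher locality, and CCTO43, CCTO46 and CCTO89 from seed of a lower one. None was treated, and every sample was several needles of the 2010 cohort of a single tree, taken near noon. Each date had 5 trees up to 10 March 2011, except 23 February with 4, then 4 trees from April to August, 2 on 7 September and 3 on 7 October and on 26 October 2011. A replicate is thus a tree, libraries of 1 tree are repeated samples of it, and libraries of 1 date share that day, so tests between dates measure the spread between trees only.

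Libraries held 9924771 to 37373284 counts. Where a library had no count of a transcript, up to 3 counts are possible, which is 0.302 CPM at the lowest depth and 0.0803 CPM at the highest. Of 66 libraries, 64 correlated best with other libraries of the tree they are labelled with. The exceptions are the libraries of 17 August 2011 labelled CCTO44 and CCTO46, each of which resembled the other tree. The library labelled CCTO43 of 26 October 2011 stood apart because its 20 most abundant transcripts held 48.3% of its counts, against 7.78% to 38.0% in the other libraries. Tests whose contrast uses these 3 libraries are given with and without them. In needles measured whole, fewer cells of a type and less RNA per cell cannot be told apart.

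The January set held 4.35% of the needle counts in January, 0.979% in October 2010 and under 0.2% in midsummer. Its summed counts made up 0.979% ± 0.148 of a library on 27 October 2010 (SD, n = 5) and 1.16% ± 0.179 on 9 November (n = 5). They reached 2.86% ± 0.259 on 30 November, 4.35% ± 0.329 on 6 January and 2.03% ± 0.349 on 7 February (n = 5 each). The 5 libraries of 6 January lay between 3.96% and 4.77%, above all of the 61 others, of which the highest was at 3.11%.

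The share was 0.933% ± 0.00855 on 23 February (n = 4), with all 4 trees between 0.922% and 0.942%, and 0.509% ± 0.216 on 10 March (n = 5). It was 0.462% ± 0.119 on 7 April and 0.242% ± 0.0415 on 6 May (n = 4 each). From 17 June to 17 August the date means lay between 0.173% and 0.192%. In the following autumn it stood at 0.588% ± 0.0137 on 7 October (n = 3) and at 0.311% ± 0.121 on 26 October 2011 (n = 3), where the library of CCTO43 that stands apart had 0.176% and the other trees 0.350% and 0.408%. Without that library the 26 October shares were still below those of all 5 libraries of 27 October 2010, of which the lowest was 0.757%.

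**Figure D1:**
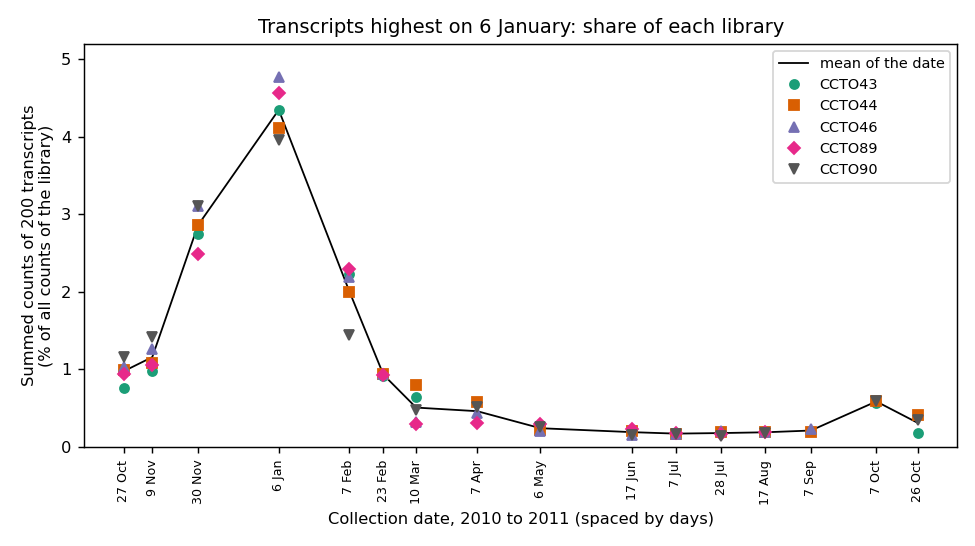
Share of each library's counts held by the 200 transcripts of the January set (y axis, percent) by collection date (x axis, spaced by days), with 1 point per tree and a line through the date means. The date mean is 0.979% on 27 October, 4.35% on 6 January and under 0.3% from May to September.

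Within the set, levels and steepness covered wide ranges. The 6 January mean ran from 30.3 to 3955 CPM with a median of 101 CPM. The ratio to the mean of the other dates ran from 3.10 to 18.9 with a median of 4.63. The last member inside the limit, psme_t001160, had a ratio of 3.10 (73.6 CPM on 6 January and 23.7 CPM over the other dates), and the first outside it, psme_t015101, had 3.09 (139 and 45.0 CPM). Trees differed on 6 January by a median coefficient of variation of 29.2%, and by 6.68% to 159% over the members.

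The largest ratio, 18.9, belonged to psme_t059100. On 6 January it had 113 CPM in CCTO43, 32.7 in CCTO44, 133 in CCTO46, 133 in CCTO89 and 40.4 in CCTO90. On 30 November the same trees had 60.7, 17.4, 97.4, 62.4 and 38.3 CPM, and on 9 November 6.34, 0.970, 3.93, 3.81 and 1.78 CPM. The trees from the higher locality were the lowest on 6 January and on 30 November, and on 30 November all 5 trees lay above all trees of 9 November. From April to September every date mean was under 0.3 CPM.

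The next ratio, 18.0, belonged to psme_t007911, whose order of trees was different. It had 102, 141, 105, 83.3 and 172 CPM on 6 January in CCTO43, CCTO44, CCTO46, CCTO89 and CCTO90. On 7 February it had 5.44, 17.5, 7.08, 5.18 and 4.68 CPM in the same order. CCTO90 was the highest of the trees in January and the lowest in February, and the groups did not overlap. By 17 August the 4 trees were at 0.0509 to 0.135 CPM, which is 9 counts in all 4 libraries together.

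Most members were high on few dates. At 50% or more of their own January level were 182 of 200 members on 30 November, 66 on 7 February, 43 on 9 November, 35 on 27 October and 14 on 23 February, and none on 17 June, 7 July, 28 July or 17 August. Counting 6 January itself, 6 members had only that date at this level, 106 had 2 dates, 37 had 3, 30 had 4, 19 had 5 and 2 had 6. The second highest date was 30 November for 165 members and 7 February for 20. The lowest date was 7 September for 56, 6 May for 36, 28 July for 26 and 17 June for 24. Between 37 and 40 members had date means under 1 CPM on each date from 7 July to 7 September, and 6 had no count in either library of 7 September.

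The median member stood at 33.6% of its January level on 27 October, 37.5% on 9 November, 78.0% on 30 November, 42.0% on 7 February, 21.9% on 23 February and 11.7% on 10 March. It then lay between 4.87% and 6.69% from 6 May to 7 September, with 12.7% on 7 April. On 7 October 2011 it was at 16.7% and on 26 October 2011 at 8.51%.

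Sets of 200 chosen in the same way for the neighbouring dates had other shapes, which their choice in part fixes and which were not tested. Transcripts highest on 30 November, picked from 731 that qualified, had a median of 72.3% of their peak level on 6 January and 28.3% on 7 February. Those highest on 7 February, picked from 265, had 81.0% on 6 January, 60.0% on 27 October and 22.5% to 29.5% from April to September. The January set had a lower floor relative to its peak than the February set and a later fall than the November set.

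**Figure D2:**
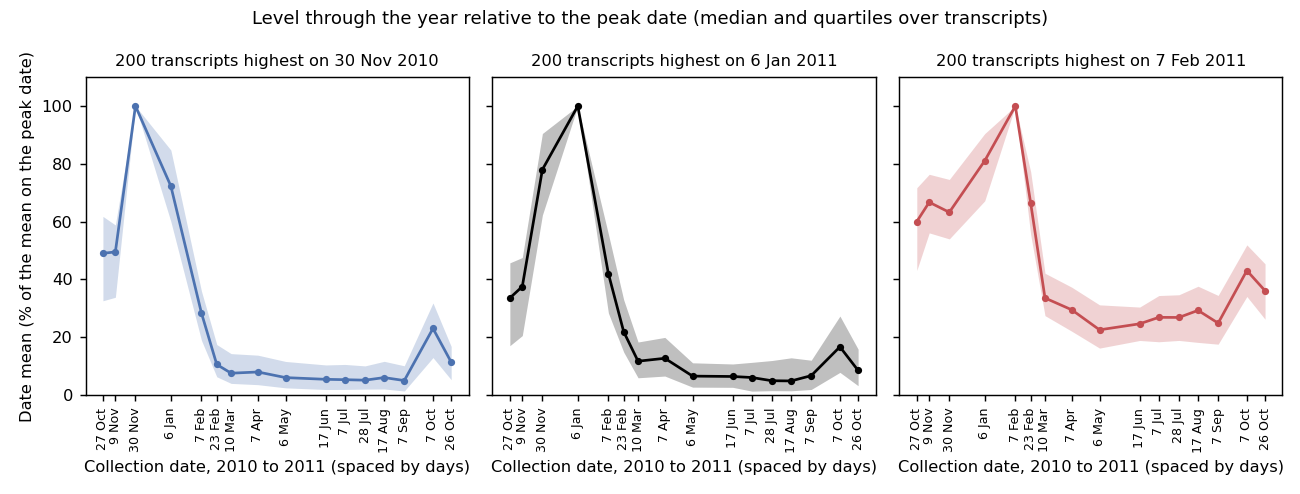
Date means as a percentage of the mean on the peak date (y axis) by collection date (x axis, spaced by days) for 3 sets of 200 transcripts, highest on 30 November, 6 January and 7 February; lines are medians over transcripts and bands run from the lower to the upper quartile. In summer the medians of the November and January sets lie near 5%, and that of the February set lies above 20%.

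Changes between dates other than 6 January were tested with edgeR's quasi-likelihood F test on the counts of all 60931 transcripts with enough counts, with the tree as a block and p-values adjusted over all of them by the Benjamini-Hochberg method. A change was called at an adjusted p under 0.05. All 200 members had enough counts. The choice of members used the date of the peak, the mean of the other dates together and the lowest of them. Low summer levels, rises into the peak and falls after it are therefore in part fixed by the choice, and the share over all transcripts, which were not chosen by date, is given beside them as a background only. Which of the dates before and after the peak is higher was not used directly. Most of the other dates came after the peak, however, so a large ratio to their mean favoured transcripts that fell soon after it. Comparisons of a date before the peak with a date after it may therefore also be in part fixed by the choice.

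The first step asked whether the set was already rising at the start of November, and few members passed the test. From 27 October to 9 November 2010, 3 of 200 members rose (1.5%) beside 0.663% of all transcripts tested, and 0 fell beside 0.179%. At an unadjusted p under 0.05, 24 members were higher and 9 were lower, and DESeq2 called 3 and 0. The log2 changes of the members ran from -1.53 to 2.57 with a median of 0.03. With 1 tree omitted at a time, 1 or 2 rises were called, 1 without CCTO44 and 1 without CCTO89. The share over all transcripts was then 0.110% to 0.330%.

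The larger of these rises was that of psme_t133845, with 1.43, 1.75, 10.3, 1.23 and 1.76 CPM on 27 October in CCTO43, CCTO44, CCTO46, CCTO89 and CCTO90 and 6.95, 5.94, 37.4, 5.22 and 4.24 CPM on 9 November. It rose in 5 of 5 trees by 1.62 on the log2 scale (SE 0.33; edgeR, adjusted p = 0.00539), and CCTO46 stood far above the other trees on both dates. Omitting CCTO44 gave an adjusted p of 0.0751 in edgeR. In psme_t094641 the rise was 1.59 on the log2 scale (SE 0.38; edgeR, adjusted p = 0.0263), from 0.886 to 10.7 CPM over the trees on 27 October to 3.57 to 32.2 CPM on 9 November. Its edgeR adjusted p rose to between 0.0729 and 0.194 when CCTO43, CCTO44, CCTO46 or CCTO89 was omitted.

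Most of the set rose during the rest of November. Between 9 and 30 November, 146 of 200 members rose (73%), beside 7.7% of all transcripts tested, and 1 fell, beside 7.36%. The median log2 change was 1.25, with 197 members above 0, against -0.03 for all transcripts. Of the members that rose, 116 rose at least 2-fold and 48 at least 4-fold, and in 143 each of the 5 trees went up. With 1 tree omitted at a time, 117 to 142 members were called, beside 4.52% to 6.54% of all transcripts.

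The steepest rises in November were those of psme_t070199 and psme_t075233, which also had the highest January levels of the set, 3955 and 2576 CPM on average. The first had 4.42, 5.78, 11.4, 2.26 and 11.2 CPM on 9 November in CCTO43, CCTO44, CCTO46, CCTO89 and CCTO90 and 703, 446, 1003, 313 and 1102 CPM on 30 November. On 6 January these trees had 5287, 2775, 4955, 2913 and 3843 CPM. The November rise was 6.81 on the log2 scale (SE 0.56; edgeR, adjusted p = 5.45e-13), without overlap between the dates.

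The second, psme_t075233, moved in parallel, from 1.41 to 9.98 CPM over the trees on 9 November to 209 to 791 CPM on 30 November, a log2 rise of 6.56 (SE 0.56; edgeR, adjusted p = 6.02e-13). On 6 January it had 1727 to 3684 CPM. The trees kept the same order in both transcripts on 30 November and on 6 January. Whether the pair are near-identical copies that share reads was not examined, as their sequences were not used here.

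The member that fell in November was psme_t025353, which dipped before its January peak. It had 32.8, 24.0, 20.3, 30.9 and 22.9 CPM on 9 November, 12.0, 8.74, 9.81, 9.37 and 11.0 CPM on 30 November and 43.7, 24.4, 33.1, 28.5 and 28.2 CPM on 6 January, in the order CCTO43, CCTO44, CCTO46, CCTO89 and CCTO90. Every tree on 30 November lay below every tree of 9 November, with a log2 change of -1.26 (SE 0.26; edgeR, adjusted p = 0.000333).

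The flanks of the peak were unequal, which the choice of members may in part fix. On 7 February 2011, 121 of 200 members (60.5%) were lower than on 30 November 2010, beside 14.4% of all transcripts tested, and 5 (2.5%) were higher, beside 14.2%. The median log2 difference was -1.07, with 181 members below 0, against 0.06 for all transcripts. At least 2-fold lower were 100 members and at least 4-fold lower 23. With 1 tree omitted at a time, 103 to 126 members were lower, beside 10.0% to 13.2% of all transcripts. Higher were 3 to 6, beside 9.88% to 12.2%, the 3 being without CCTO89.

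The steepest drop across the peak was that of psme_t039236. It had 161, 72.2, 137, 165 and 69.6 CPM on 30 November in CCTO43, CCTO44, CCTO46, CCTO89 and CCTO90, 170, 68.6, 181, 252 and 45.3 CPM on 6 January, and 10.7, 3.19, 18.3, 35.6 and 1.36 CPM on 7 February. Every tree was lower in February than every tree in November, by -3.77 on the log2 scale (SE 0.36; edgeR, adjusted p = 6.99e-12). In psme_t059100, described above, the difference was -3.22 (SE 0.38; edgeR, adjusted p = 4.24e-10), with 11.4, 1.50, 11.9, 14.2 and 0.871 CPM on 7 February.

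The pair psme_t070199 and psme_t075233 went the other way. On 7 February psme_t070199 still had 3333, 1998, 2176, 3705 and 1575 CPM in CCTO43, CCTO44, CCTO46, CCTO89 and CCTO90, so that every tree lay above every tree of 30 November. Its log2 difference was 1.91 (SE 0.45; edgeR, adjusted p = 0.000837). In psme_t075233 the difference was 1.85 (SE 0.45; edgeR, adjusted p = 0.0013), with 1033 to 2450 CPM on 7 February; without CCTO89, in which it was 1.19 among the remaining trees, the edgeR adjusted p was 0.0519.

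**Figure D3:**
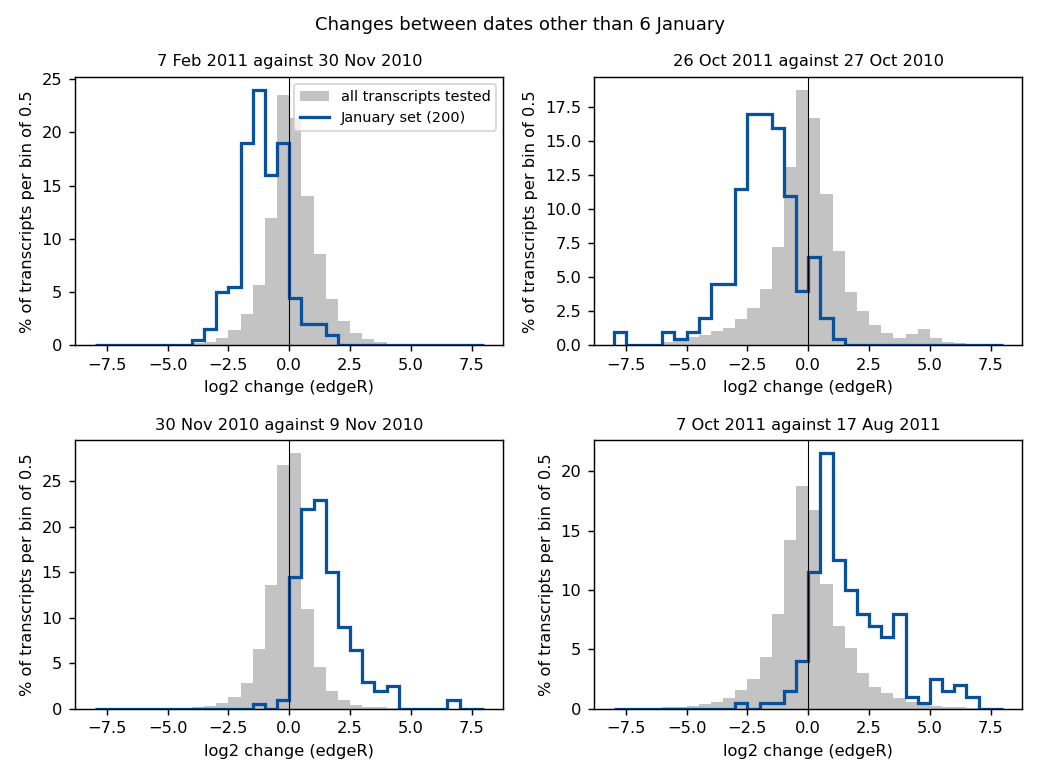
Distribution of log2 changes (x axis, edgeR) for 4 pairs of dates that leave out 6 January, as the percentage of transcripts per bin of 0.5 (y axis), with grey bars for all transcripts tested and a line for the 200 members. The members' medians lie at -1.07, -1.82, 1.25 and 1.39, and those of all transcripts within 0.07 of 0.

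From February on the set declined in steps. Between 7 and 23 February, 72 members fell (36%), beside 5.15% of all transcripts, and 1 rose, beside 5.97%. Between 23 February and 10 March, 93 fell (46.5%), beside 9.84%, and 1 rose, beside 10.6%. The median log2 changes were -0.72 and -0.71. The first count was 35 without CCTO44, beside 1.42% of all transcripts, and 42 without CCTO46, beside 2.16%. The second was 61 without CCTO46, beside 6.07%. Both counts are thus uncertain in size, and the shares over all transcripts fell with them. The scaling factors of the libraries also changed between these dates, from 1.10 to 1.15 on 23 February to 0.771 to 0.95 on 10 March, and the part of this change in the counts was not tested beyond the other scalings, which gave 95 and 100 members for the March step.

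In the February step psme_t039236 went on falling, to 1.43, 0.205, 1.28 and 3.00 CPM in CCTO43, CCTO44, CCTO46 and CCTO89, by -3.17 on the log2 scale (SE 0.43; edgeR, adjusted p = 3.19e-06). In psme_t029748 the trees fell from between 8.63 and 41.2 CPM to between 0.222 and 4.02 CPM, a log2 change of -3.65 (SE 0.83; edgeR, adjusted p = 0.00257). Both were lower in 4 of 4 trees. The dates did not overlap in psme_t029748, and in psme_t039236 they overlapped only through CCTO90, which had 1.36 CPM on 7 February and no library on 23 February.

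The member that rose in February was psme_t052324, which had more than 1 high date. It had 38.0, 32.4, 36.8, 39.3 and 84.7 CPM on 6 January in CCTO43, CCTO44, CCTO46, CCTO89 and CCTO90, and 19.8, 19.8, 26.7, 27.7 and 38.6 CPM on 7 February. On 23 February the first 4 of these trees had 32.8, 42.7, 46.3 and 54.0 CPM, a rise in 4 of 4 trees by 1.04 on the log2 scale (SE 0.23; edgeR, adjusted p = 0.00176). CCTO44, CCTO46 and CCTO89 were higher on 23 February than on 6 January, and CCTO43 was lower. CCTO90 had no library on 23 February, so the means of these dates rest on different trees. The mean of psme_t052324 was 15.0 CPM on 10 March and 44.3 CPM on 7 April, when CCTO43 had no library. The April mean is 95.8% of its January level over all 5 trees. CCTO90 was the highest tree on 6 January, 7 February and 7 April, and its 7 February value lay within the range of 23 February.

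In the March step the largest falls with the same direction in every tree were those of psme_t010945 and psme_t002108. The first went from 87.6, 73.1, 90.1 and 56.3 CPM in CCTO43, CCTO44, CCTO46 and CCTO89 to 15.3, 11.2, 7.90 and 8.33 CPM, by -2.53 on the log2 scale (SE 0.35; edgeR, adjusted p = 2.15e-06). The second went from 87.7, 86.7, 107 and 150 CPM to 19.1, 15.2, 11.5 and 25 CPM, by -2.44 (SE 0.23; edgeR, adjusted p = 1.48e-10). Neither overlapped between the dates, and their means on 7 April were 42.8 and 54.9 CPM. The member that rose in this step did not do so in every tree.

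April brought rises and falls in the same set. Between 10 March and 7 April, 33 members rose (16.5%), beside 3.76% of all transcripts, and 16 fell (8%), beside 2.63%. The median log2 change was 0.08. The count of rises was 21 without CCTO44, beside 1.89% of all transcripts, and 20 without CCTO89, beside 2.83%.

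Among the rises, psme_t009511 went from 8.50, 2.09, 1.69 and 4.09 CPM in CCTO44, CCTO46, CCTO89 and CCTO90 to 33.4, 37.7, 6.02 and 26.7 CPM, by 2.52 on the log2 scale (SE 0.34; edgeR, adjusted p = 6.78e-07). Beside it psme_t001980 had a similar January mean, 184 against 165 CPM, and a log2 rise of 2.37 (SE 0.35; edgeR, adjusted p = 6.62e-06). In both, CCTO89 in April was the lowest tree and overlapped the March values. Whether psme_t009511 and psme_t001980 are near-identical copies that share reads was not examined. Among the falls, psme_t070199 dropped from between 50.3 and 173 CPM to between 2.93 and 14.2 CPM, by -3.43 (SE 0.52; edgeR, adjusted p = 1.02e-05), and psme_t075233 by -3.0 (SE 0.52; edgeR, adjusted p = 8.04e-05).

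Whether the set returned in the next autumn was asked with the dates of 2011. Between 17 August and 7 October 2011, 122 members rose (61%), beside 12.3% of all transcripts, and 4 fell (2%), beside 14%. The median log2 change was 1.39 with 186 members above 0, and 72 members rose at least 4-fold. CCTO44 and CCTO90 are the trees with both dates, and the 17 August library labelled CCTO44 is among those that resembled another tree. With both doubtful libraries left out 112 members rose, beside 8.76% of all transcripts, and with their labels exchanged 135 rose, beside 13.5%.

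Largest among the rises was that of psme_t050024, from 0.712 to 142 CPM in CCTO44 and from 0.317 to 72.1 CPM in CCTO90, with 47.0 CPM in CCTO43 in October. The log2 change was 6.71 (SE 0.68; edgeR, adjusted p = 1.38e-10). In psme_t044449 CCTO44 went from 0.458 to 73.9 CPM and CCTO90 from 0.0792 to 91.6 CPM, a log2 change of 6.69 (SE 0.71; edgeR, adjusted p = 3.84e-10). The 3 libraries of 7 October lay far above the 4 of 17 August in both, whichever tree the August libraries belong to. With the doubtful August libraries left out the log2 changes were 7.26 and 8.28, and with their labels exchanged 6.75 and 6.64.

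Among the members that fell was psme_t009481. Its date means were 214 CPM on 6 January and 107 on 10 March, then 55.1 on 17 June, 91.4 on 7 July and 64.1 on 17 August, and 10.7 CPM on 7 October. The log2 change of the last step was -2.61 (SE 0.35; edgeR, adjusted p = 8.6e-08).

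This transcript also shows the doubt over the August labels. CCTO44 had 41.2 CPM on 7 July and 26.7 on 28 July, and the library labelled CCTO44 had 66.2 CPM on 17 August. CCTO46 had 97.7 and 85.0 CPM on the July dates, and the library labelled CCTO46 had 24.3 CPM on 17 August. In psme_t019996 the means were 16.7 CPM on 17 August and 7.22 CPM on 7 October, and the log2 change was -1.50 (SE 0.35; edgeR, adjusted p = 0.000995). It stood at 59.0% of its January level on 7 April and 32.6% on 17 August. In both transcripts all libraries of 7 October lay below all of 17 August. With the doubtful August libraries left out the log2 changes were -2.65 and -1.53, and with their labels exchanged -2.41 and -1.46.

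The return did not proceed through October. Between 7 and 26 October 2011, 37 members fell (18.5%), beside 1.51% of all transcripts, and 1 rose, beside 1.64%. The median log2 change was -0.84, with 176 members below 0. Leaving out the CCTO43 library that stands apart gave 23 falls, beside 0.714% of all transcripts. Omitting a tree gave 13 without CCTO43, beside 0.485%, and 14 without CCTO44, beside 0.351%. The number of falls thus rests on few libraries, and the share over all transcripts dropped as well.

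The steepest of these, psme_t022990, had 2.04, 2.57 and 5.51 CPM on 7 October in CCTO43, CCTO44 and CCTO90 and 0.0765, 0.281 and 0.628 CPM on 26 October, a log2 change of -3.20 (SE 0.71; edgeR, adjusted p = 0.00437). The next, psme_t035829, had 5.97, 5.86 and 14.5 CPM and then 1.15, 1.07 and 0.864 CPM, a log2 change of -2.85 (SE 0.65; edgeR, adjusted p = 0.00669). Both were lower in 3 of 3 trees without overlap. On 26 October they rested on 14 and 45 counts over the 3 libraries. Without CCTO44 the edgeR adjusted p was 0.0821 and 0.0924, and without CCTO90 it was 0.16 for psme_t035829. Without only the CCTO43 library of 26 October the log2 changes were -2.98 and -3.18 (edgeR, adjusted p = 0.0269 and 0.0133).

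At the same time of year, the set was lower in 2011 than in 2010, which the choice of members may also in part fix. On 26 October 2011, 152 of 200 members (76%) were lower than on 27 October 2010, beside 15.3% of all transcripts tested, and 0 were higher, beside 14.8%. At an unadjusted p under 0.05 edgeR had 1 member higher, and DESeq2 called 0 higher and 151 lower. The median log2 difference was -1.82, with 182 members below 0, against -0.07 for all transcripts, and 83 members were at least 4-fold lower. Without the CCTO43 library that stands apart 139 were lower, beside 11.3% of all transcripts, and 1 was higher, beside 11.2%. The needles were also 1 year older on the later date, so the age of the needles and the year cannot be told apart.

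The lowest by fitted change was psme_t029748, with 0.506, 2.53 and 19.3 CPM on 27 October 2010 in CCTO43, CCTO44 and CCTO90 and 0, 0 and 0.157 CPM on 26 October 2011. The later date rests on 2 counts, and summed over these 3 trees the rate was 158 times lower, with an exact 95% interval of 43.5 to 1309 that covers counting error only (edgeR, adjusted p = 0.000401). In psme_t152973 the same trees had 5.01, 22.4 and 55.0 CPM and then 0.153, 0.225 and 0.157 CPM, a log2 change of -7.53 (SE 1.13; edgeR, adjusted p = 6.43e-07). Both were lower in 3 of 3 trees, without overlap. Without the CCTO43 library that stands apart the edgeR adjusted p was 0.00263 for psme_t029748 and 2.47e-05 for psme_t152973.

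The transcripts that rose in November 2010 and those that rose by 7 October 2011 were partly the same. Of the 146 and the 122, 96 were shared, which is 65.8% of the first list and 78.7% of the second, beside 61% and 73% over the whole set. Of the 121 members lower in February than in November and the 152 lower in October 2011 than in October 2010, 98 were shared, which is 81.0% and 64.5%, beside 76% and 60.5%. The shares of each list lay near those of the set.

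**Figure D4:**
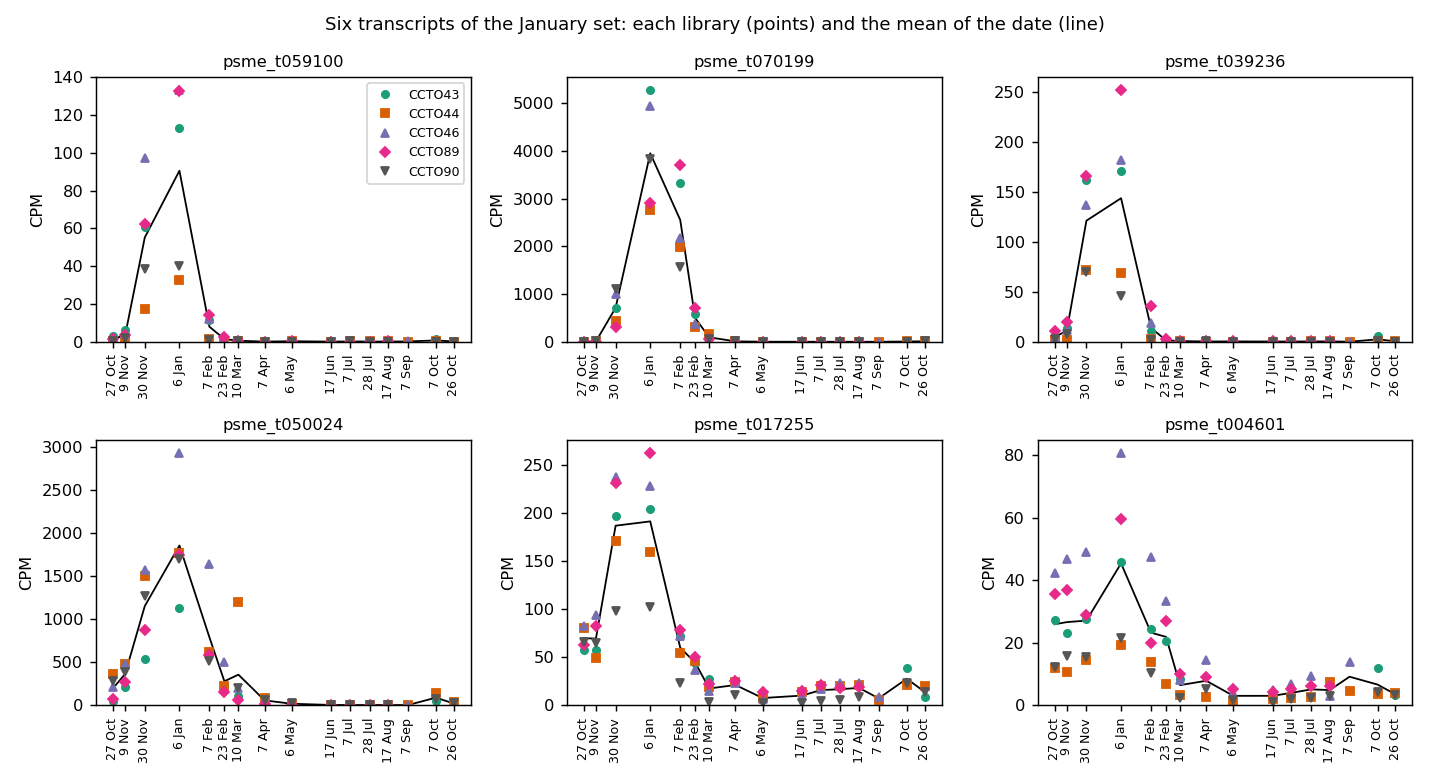
Level (y axis, CPM) by collection date (x axis, spaced by days from October 2010 to October 2011) of 6 named members, with 1 point per tree and a line through the date means. The panels differ in scale, and psme_t070199 keeps 64.7% of its January level on 7 February where psme_t039236 keeps 9.65%.

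Because the peak was used to choose the members, it was looked at again in trees that had no part in a choice. The rule was applied to 4 trees, and the level of the 200 chosen transcripts was read in the omitted tree. In CCTO43, 159 of 200 (79.5%) were highest on 6 January, beside 19% of all transcripts of the level and range filter in the other 4 trees. The values were 148 (74%) beside 18.1% in CCTO44, 158 (79%) beside 15.6% in CCTO46, 168 (84%) beside 21.9% in CCTO89 and 101 (50.5%) beside 12.4% in CCTO90. The median ratio of 6 January to the mean of the other dates in the omitted tree was 3.07 to 4.18 for the chosen transcripts and 1.14 to 1.27 for all transcripts of the filter. Of each 200 chosen in this way, 158 to 183 were members of the January set. The background holds transcripts highest on any date, so a higher share among the chosen was likely beforehand, and no test was made. CCTO43 was sampled on 9 dates and CCTO44 on 16, and all trees share the day of 6 January, so the day itself was not repeated.

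**Figure D5:**
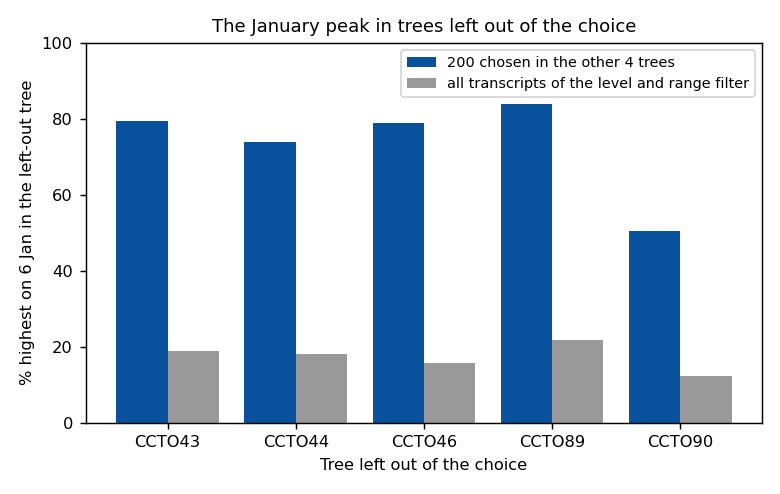
Percentage of transcripts highest on 6 January in the tree left out of the choice (y axis) for each of the 5 trees (x axis); blue bars are 200 transcripts chosen in the other 4 trees and grey bars all transcripts of the level and range filter. CCTO90 has 50.5% and the other trees 74% to 84%, all above the grey bars at 12.4% to 21.9%.

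CCTO90 had the most members that were highest on 30 November rather than 6 January. Of the January set itself, 125 members were highest on 6 January within CCTO90 and 71 on 30 November, while in CCTO89 the numbers were 179 and 4. In CCTO43, CCTO44 and CCTO46 they were 170 and 19, 158 and 34, and 165 and 30. The summed share in CCTO90 was 3.11% on 30 November, 3.96% on 6 January and 1.44% on 7 February, and in CCTO89 it was 2.50%, 4.56% and 2.30%. CCTO90 thus had the lowest share of the trees on 6 January and 7 February, and CCTO89 the lowest on 30 November. These are descriptions of the members by their chosen date.

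Differences between the 5 trees over all dates were called in 151 members (75.5%), beside 76.2% of all transcripts, which is no result about the set. The spread in this test, as in that of tree by season below, is between repeated libraries of the same trees. Its p-values therefore do not bear on locality. The count was 161 without the doubtful August libraries, 164 with their labels exchanged and 152 without the CCTO43 library of 26 October 2011. The smallest adjusted p belonged to psme_t004601 (edgeR, adjusted p = 3.09e-17), with 45.8, 19.2, 80.7, 59.7 and 21.4 CPM on 6 January in CCTO43, CCTO44, CCTO46, CCTO89 and CCTO90. The trees of the higher locality were lowest here, as they were on 27 October with 11.9 and 12.2 CPM against 27.3 to 42.3 CPM. In psme_t002878 (edgeR, adjusted p = 3.33e-16) CCTO44 was highest, with 89.7 CPM on 6 January against 15.5 to 37.4 CPM in the other trees. Without the doubtful August libraries the edgeR adjusted p was 1.01e-25 for psme_t004601 and 3.97e-19 for psme_t002878, and without the CCTO43 library of 26 October 2011 it was 7.62e-17 and 9.17e-16.

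Over the whole set the localities did not stand apart in 1 direction. The fitted levels of both trees from the higher locality lay above those of all 3 trees from the lower one in 36 members (18%), beside 14.4% of all transcripts, and below them in 21 members, beside 14.9%. With 2 trees against 3 no test was made. The range of fitted levels over the trees had a median of 0.92 on the log2 scale in the set and 1.11 in all transcripts.

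The yearly course differed between trees in 58 members (29%), beside 10.3% of all transcripts. The model held the 4 trees with 13 or more dates and gave each tree its own cosine and sine of 1 year. Members were chosen for level and for range over the dates and all transcripts were not, so the shares are not matched and the second is a background only. The count of members was 65 without the doubtful August libraries, beside 10.7% of all transcripts, and 82 with their labels exchanged. It was 17 without CCTO89, beside 4.58%, and DESeq2 called 85, beside 11.5%. With a single term for winter in place of the cosine and sine it was 12, beside 0.618% of all transcripts.

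The member with the smallest adjusted p was psme_t017255 (edgeR, adjusted p = 7.47e-06). On 27 October it had 79.9, 82.1, 62.6 and 66.2 CPM in CCTO44, CCTO46, CCTO89 and CCTO90, on 6 January 160, 228, 262 and 102 CPM, and on 7 July 20.0, 16.5, 21.3 and 4.58 CPM. CCTO90 was within the other trees in October and below them in January and July. In psme_t018312 (edgeR, adjusted p = 3.59e-05) CCTO44 was the lowest of these trees on 6 January with 81.4 CPM against 136 to 168. On 7 July CCTO44 had 9.30 CPM, above CCTO46 and CCTO89 with 7.64 and 4.96 CPM. CCTO90 was the highest of these trees on both dates, with 168 and 13.1 CPM. Without the doubtful August libraries the edgeR adjusted p was 5.83e-06 for psme_t017255 and 4.61e-05 for psme_t018312. With the winter term the edgeR adjusted p was 0.965 for the first and 0.296 for the second.

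Beyond date and tree, the members moved together to a small degree. After date and tree were removed from log2 values, the mean correlation over 19900 pairs of members across the 66 libraries was 0.151, with 10th and 90th percentiles of -0.151 and 0.452, against 0.00741 over all pairs of transcripts tested. Points share libraries and scaling, and the members were chosen for level while all transcripts were not, so the value is a description. Whether pairs of members share reads was not examined. The median member stood furthest above its fitted level in CCTO43 on 10 March, by 0.50 on the log2 scale, and furthest below it in CCTO46 on the same date, by -0.50. On that date the summed share was 0.647% in CCTO43, 0.800% in CCTO44, 0.318% in CCTO46, 0.297% in CCTO89 and 0.481% in CCTO90.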

How the data were processed

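RNA of Douglas-fir needles was measured by poly(A) RNA-seq that keeps the strand, per the labels' protocols. CASAVA 1.8, Bowtie2 2.2.3 and DESeq are named in the submitters' processing notes. The sources used here do not give the reference of transcripts or the way of counting, and the handling of reads shared by similar transcripts is unknown. The authors deposited whole-number counts per transcript, which all main results use. A normalized signal table deposited by the authors (36145 transcripts, all 200 members among them) served as an alternative for the choice of members. A further table of interpolated signal values was not used.

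Members and alternatives were chosen with earlier results of these data known. Tests used edgeR 4.0.16 in R 4.3.3 (filterByExpr by date with a minimum count of 10, TMM factors, robust quasi-likelihood fit of all 66 libraries, date plus tree), with Benjamini-Hochberg adjustment over 60931 transcripts. The tree pairs the samples, since the same tree was sampled on each date; after date means were removed, libraries correlated by a median of 0.51 within trees and -0.15 between trees. Standard errors come from the log2 change and its F value. Tests were run on simulated counts of 12000 transcripts with 200 changed per test. The simulation had a fixed spread and no tree differences beyond the changes set in it, so it does not give the error rate in these data. No 2 libraries of a date agreed within sampling noise (smallest chi-square per degree of freedom 16.4 over 109 pairs).

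Transcripts named are the pair with the largest January ratio, the largest 2 changes per direction among called members that moved alike in each tree sampled on both dates, the smallest 2 adjusted p of each tree test, and those at the limit of the choice. Alternatives were other scalings, no low-count filter, DESeq2 1.42.0, no tree block, each tree omitted, and, added after the data were seen, omission or exchange of the doubtful libraries. The series' design text counts 73 libraries, and 66 were analysed here. Limits from counts cover counting error only.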

Additional observations from a re-analysis of the deposited data

Results flagged for a closer look

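Of 77 sets of values of named members on a date with 4 or more trees, 6 had a library far from the others of its date. The 77 do not cover every named member on every such date. Chance gives about 1 in 20, but the sets share trees, dates and transcripts, so no excess can be read from the 6. On 6 January psme_t029748 had 121 CPM in CCTO46 and 31.0 to 39.3 CPM in the other trees. On the same date psme_t094641 had 189 CPM in CCTO43 against 29.4 to 66 CPM, psme_t052324 had 84.7 CPM in CCTO90 against 32.4 to 39.3 CPM, and psme_t022990 had 211 CPM in CCTO89 against 77.0 to 104 CPM. In psme_t133845 CCTO46 had 10.3 CPM on 27 October against 1.23 to 1.76 CPM, and 37.4 CPM on 9 November against 4.24 to 6.95 CPM. CCTO46 was the high tree in 3 of the 6 sets, among them both sets of psme_t133845, and CCTO43, CCTO89 and CCTO90 in 1 each. Not among the 6 is psme_t050024 on 10 March, with 1200 CPM in CCTO44 against 58.0 to 204 CPM in the other trees. The causes were not tested.

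The yearly course differed between trees in 58 members by the test of tree by season, beside 10.3% of all transcripts, which were not chosen for level or range. The smallest adjusted p in edgeR were 7.47e-06 for psme_t017255 and 3.59e-05 for psme_t018312. The count was 65 without the doubtful August libraries, beside 10.7% of all transcripts, and 82 with their labels exchanged. It was 17 without CCTO89, beside 4.58%, and 12 with a winter term, beside 0.618%. With the winter term psme_t017255 and psme_t018312 both lost the call. The part of the August labels in these differences was not tested.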

How the results depend on the processing

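Of 176 counts computed under an alternative, 155 stayed within 1.5 times the value given, and of 384 values of named transcripts 369 kept their direction and side of the threshold, 15 kept their direction but lost the call, and 0 reversed. The paired fit, with the tree as a block, was compared with no replicate block: without it 3 members were higher in February than in November, 0 rose by 9 November, 46 fell by 23 February, 59 by 10 March and 23 by 26 October 2011, with no other count moved by over 1.5 times. RLE size factors gave 5 rises by 9 November. A winter term in place of cosine and sine gave 12 members for tree by season, beside 0.618% of all transcripts. Without the CCTO43 library of 26 October 2011, 1 member was higher than in October 2010 and 23 fell from 7 to 26 October. With 1 tree omitted at a time, the members higher in February than in November ran from 3 to 6, those higher in October 2011 than in October 2010 from 0 to 1, the rises by 9 November from 1 to 2, the falls by 23 February from 35 to 86 and by 10 March from 61 to 89, the rises by 7 April from 20 to 39, the falls by 26 October 2011 from 13 to 44, and tree by season from 17 to 43. The causes were not tested. Choosing the members with TMM library sizes kept 159 of 200, with the authors' normalized values 170, with medians over trees 163, with a range of at least 10 times 185, and with 1 tree omitted 158 to 183. Depth limits the summer and late October values of the members under 1 CPM, and dates with 2 or 3 trees give the least certain spread.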
